A study of Mus musculus with 32 samples.

Results

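LSK cells of adult mice that had lost both alleles of Kat7 after polyIC treatment were compared with LSK cells that had lost 1 allele. LSK cells are the lineage-negative, Sca-1 positive, Kit positive fraction of bone marrow, which holds the hematopoietic stem cells and the earliest multipotent progenitors. The comparison takes in 8 of the 32 RNA libraries of the study, 4 knockout and 4 control, each from 1 mouse, and every gene that passed a filter on low counts, 14102 in all. The knockouts were Hbo1 fl/fl; Mx1Cre mice, and the controls Hbo1 fl/+; Mx1Cre mice, both C57BL/6 adults; their exact age is not given in the labels. Hbo1 is the older name of Kat7. Both groups carried Mx1Cre, a Cre driven by an interferon-responsive promoter, and both were given polyIC, which switches it on by inducing interferon, so both had been exposed to interferon and to Cre, and the interval between polyIC and sorting is not given. Mx1Cre acts in other interferon-responsive tissues too, so the deletion was not limited to blood cells. The titles and design make the controls heterozygous, whereas the treatment text calls them wild type. In each group replicates 1 and 2 were labelled female and replicates 3 and 4 male. The other libraries were progenitor cells of the same mice, and LSK and progenitor cells of Hbo1 fl/fl; CreER and Hbo1 fl/+; CreER mice, C57BL/6 too, which carry a Cre that tamoxifen activates in all tissues where the Rosa locus is active.

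Kat7 encodes the catalytic subunit of the HBO1 complex, a histone acetyltransferase of the MYST family that acetylates lysines in the tail of histone H3, together with a scaffold of the Jade or Brpf family, an ING reader and Meaf6. It was first described through its binding to the replication origin complex. Stem cells in adult marrow are mostly out of cycle. They are kept there in part by angiopoietin and its receptor Tek, and their identity depends on transcription factors such as Gata2, Mecom, Hoxa9 and Gfi1b, several of which also act in the megakaryocyte, erythroid and mast cell lineages. The title of the study names quiescence and self-renewal of hematopoietic stem cells as its subject.

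The 8 libraries held between 10701423 counts (knockout 1) and 18409271 counts (knockout 2), with 15665 to 16765 genes detected. The gate was checked against its markers. Ly6a, which encodes Sca-1, stood at 19.1 ± 4.48 CPM (SD, n = 4; CPM of the library total, without TMM scaling) in knockout and 19.4 ± 3.25 CPM in control LSK cells, against 2.74 ± 1.10 and 2.90 ± 0.365 CPM in the progenitor cells of the same knockout and control mice. Kit, the other positive marker, stood at 286.5 ± 46.7 CPM in knockouts and 471 ± 14.9 CPM in controls. The lineage genes Cd3e and Cd8a reached at most 0.77 CPM in any of the 8 libraries and Ly6g 8.20 CPM, so a few lineage transcripts were present. Knockout 2 stood apart from the other knockouts. On the first principal component, which held 56.4% of the variance, it lay at -20.0, against -46.6, -49.8 and -48.1 for knockouts 1, 3 and 4 and 31.3 to 48.1 for the controls. Knockouts 1, 3 and 4 also showed a trend with gene length that knockout 2 showed weakly, described with the metabolic genes. Results are therefore also given with knockout 2 as the only knockout library (called knockout 2 alone), a fit with fewer samples, in which 549 genes were called in all.

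Kat7 (Entrez 217127, chromosome 11, 95271853 to 95310246 on mm10) had 0.982, 1.32, 1.69 and 1.57 CPM in knockouts, against 75.7, 76, 76.5 and 66.6 CPM in controls. Every knockout library, knockout 2 included, held little of the transcript, and control 4 was the lowest control. The log2 fold change of knockout over control was -5.71 ± 0.18 (SE; edgeR, Benjamini-Hochberg adjusted p = 3.71e-13). Counts were made per gene, so they do not show which exons the remaining reads came from. Of the other 9 HBO1 complex subunits 1 was called: Jade2, a scaffold subunit, rose, with 66.1, 75.3, 61.4 and 63 CPM in knockouts, against 45.4, 50.4, 44.3 and 53.7 CPM in controls. Meaf6 (log2 fold change 0.22 ± 0.11), Jade1 (-0.07 ± 0.09), Ing5 (-0.03 ± 0.09) and Brd1 (0.03 ± 0.08) did not pass the test. Among the 9 other histone acetyltransferases tested, Hat1, which acetylates newly made histones, rose by 0.64 ± 0.12 on the log2 scale, and Ep300, a general coactivator, fell by 0.59 ± 0.20; the call of Ep300 was lost without control 2, 3 or 4 or knockout 1, 3 or 4, each left out alone (adjusted p = 0.0625 to 0.115, same test). Of the 18 histone deacetylases Hdac11, Hdac7 and Hdac9 fell and Hdac3 rose, the call of Hdac3 being lost without control 3 or knockout 4; the share that fell, 16.7%, was near that over all genes. Hdac11 had the lowest adjusted p of them, and its values were 0.884, 1.93, 1.05 and 1.48 CPM in knockouts, against 8.5, 9.05, 7.36 and 8.34 CPM in controls.

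In the knockouts a large set of genes was lower, many of them by large amounts, and a set of similar number was higher by smaller amounts. Of the 14102 genes, 4378 (31.0%) were called at an adjusted p under 0.05, 2141 higher (15.2%) and 2237 lower (15.9%) in knockouts. "Rose" and "fell" are used here only of such genes. Against a fold of 1.5, where 853 genes (6.05%) were called, the balance was different, with 101 genes higher (0.716%) and 752 lower (5.33%). The genes that fell past that fold were mostly of low level, with a median of 7.09 CPM in controls, and 59.2% of them lay under 10 CPM there. In 29.2% of all genes tested the 4 knockouts did not overlap the 4 controls. Called-lower genes had median log2 ratios to the control mean of -1.01, -0.71, -1.01 and -0.98 in knockouts 1 to 4, and called-higher genes 0.49, 0.22, 0.55 and 0.54, so knockout 2 had the smallest shift both ways.

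**Figure D1:**
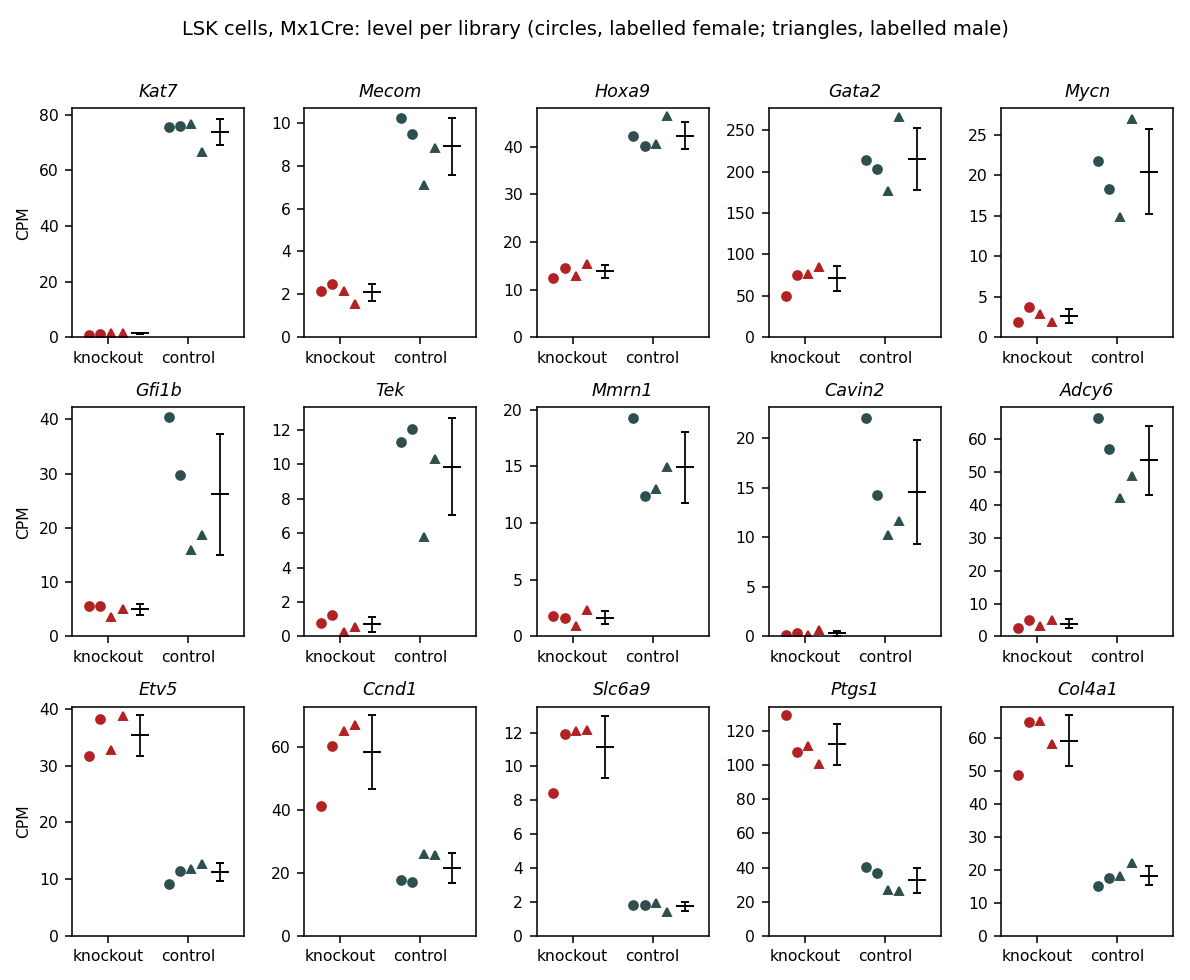
Level of 15 genes in the 4 knockout (red) and 4 control (dark) LSK libraries in CPM on linear axes starting at 0; each point is 1 library, circles are replicates 1 and 2 and triangles replicates 3 and 4, and the black mark beside each group is its mean with 1 SD. In each panel the knockouts lie on 1 side of the controls without overlap, below them from Kat7 to Adcy6 and above them from Etv5 to Col4a1.

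The transcription factors of stem cells were mostly lower in knockouts. All 34 listed factors were tested, and 19 fell and 3 rose, a share of 55.9% lower against 15.9% over all genes. The median log2 fold change was -0.50, against -0.01 over all genes, and it was -0.65, -0.34, -0.38 and -0.56 in knockouts 1 to 4 taken singly. In the fit with knockout 2 alone 9 factors were called lower. The lists of genes used here were drawn up with results of these data known, and several of their members are known from the published study of these mice, so their direction is not independent evidence. In bulk RNA, fewer cells of a type and less RNA per cell cannot be told apart. Levels from here on are CPM scaled by TMM, in knockouts 1 to 4 and then in controls 1 to 4. Gata2, a zinc finger factor needed for stem cell maintenance, had 49.9, 75, 76.6 and 84.6 CPM in knockouts, against 214, 203, 177 and 266 CPM in controls. The lowest control was more than 2 times the highest knockout. Gata2 fell by 1.58 ± 0.16 (log2, SE; edgeR, Benjamini-Hochberg adjusted p = 1.11e-06). Mycn, the N-Myc gene, had 1.87, 3.69, 2.9 and 1.94 CPM in knockouts, against 21.8, 18.2, 14.8 and 27 CPM in controls, and fell by 2.93 ± 0.29. Gfi1b, a repressor shared by stem cells and the megakaryocyte and erythroid lineages, had 5.6, 5.67, 3.55 and 5.07 CPM in knockouts, against 40.4, 29.8, 16 and 18.7 CPM in controls. Mecom, which encodes EVI1 and is needed for long-term stem cells, had 2.16, 2.48, 2.18 and 1.57 CPM in knockouts, against 10.2, 9.45, 7.11 and 8.82 CPM in controls. No knockout reached any control in these 3 genes. Hlf, a bZIP factor of the most primitive cells, fell by 1.22 ± 0.25, Meis1, a cofactor of Hoxa9, by 0.69 ± 0.16, Erg by 0.59 ± 0.13, Runx1 by 0.82 ± 0.10 and Tal1 by 0.61 ± 0.11. The factors that rose were Lyl1, a bHLH relative of Tal1 (0.42 ± 0.08), Spi1, which encodes PU.1 (0.35 ± 0.10), and Gfi1 (0.55 ± 0.19), which acts in stem cells and drives granulocyte fate. Of these, Spi1 was not called without knockout 3 (adjusted p = 0.0526, edgeR with Benjamini-Hochberg adjustment) or with the gene length trend removed, and Gfi1 was not called without control 2, 3 or 4 or knockout 1 or 3, each left out alone (adjusted p = 0.0737 to 0.114, same test).

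Hox genes of the A and B clusters pattern the body axis in embryos and are expressed in blood stem and progenitor cells. Of 18 listed, 11 passed the filter. Of these 6 fell (54.5%, against 15.9% over all genes) and 0 rose, with a median log2 fold change of -1.14. Hoxa9, which pairs with Meis1, had 12.5, 14.6, 12.9 and 15.4 CPM in knockouts, against 42.3, 40.1, 40.5 and 46.3 CPM in controls. Hoxa7 had 8.64, 11.5, 9.04 and 12.6 CPM in knockouts, against 24.6, 24.4, 22.6 and 24.1 CPM in controls, and Hoxa10 1.77, 3.3, 1.86 and 2.4 CPM in knockouts, against 4.78, 4.4, 5.02 and 6.7 CPM in controls. The knockouts lay below the controls in each of these genes. Hoxa9 fell by 1.61 ± 0.14 (edgeR, Benjamini-Hochberg adjusted p = 1.99e-07), Hoxa5 by 1.28 ± 0.25 and Hoxa3 by 1.23 ± 0.22. Hoxa2 fell in the full fit but was not called when any library but control 3 was left out (adjusted p = 0.051 to 0.115, same test). Hoxa6 had a log2 fold change of -1.32 ± 0.55 and Hoxb3 of -0.43 ± 0.23, and neither passed the test. With knockout 2 alone 2 Hox genes were called lower, and the median over the list in that library was -0.64, against -1.34, -1.12 and -0.92 in knockouts 1, 3 and 4.

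The promoters of 4 of these genes are shown because the genes that fell include GATA factors and genes the GATA and ETS families are known to bind. Each window runs from 250 bases before to 50 bases after a start of the gene, from RefSeq on GRCm38.p6. It is given 5′ to 3′ on the gene's strand in lower case. The GATA motif, searched for only as AGATAA or TGATAA and in no other form, is in capitals. The windows lie at chr6:88193641-88193940 (plus strand), chr6:52227321-52227620 (minus strand), chr2:28621933-28622232 (minus strand) and chr4:94739039-94739338 (plus strand).
Gata2: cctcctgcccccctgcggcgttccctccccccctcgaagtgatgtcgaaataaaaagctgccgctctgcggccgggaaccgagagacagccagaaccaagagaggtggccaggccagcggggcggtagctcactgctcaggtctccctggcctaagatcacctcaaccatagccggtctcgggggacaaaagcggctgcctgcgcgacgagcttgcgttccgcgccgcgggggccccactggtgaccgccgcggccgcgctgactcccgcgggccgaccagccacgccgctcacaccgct
Hoxa9: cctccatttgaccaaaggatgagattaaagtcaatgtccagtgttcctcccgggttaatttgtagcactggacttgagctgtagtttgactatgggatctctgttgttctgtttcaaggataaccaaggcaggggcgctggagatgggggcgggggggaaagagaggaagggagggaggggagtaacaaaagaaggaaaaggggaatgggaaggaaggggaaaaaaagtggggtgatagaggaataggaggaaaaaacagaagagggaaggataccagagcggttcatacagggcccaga
Gfi1b: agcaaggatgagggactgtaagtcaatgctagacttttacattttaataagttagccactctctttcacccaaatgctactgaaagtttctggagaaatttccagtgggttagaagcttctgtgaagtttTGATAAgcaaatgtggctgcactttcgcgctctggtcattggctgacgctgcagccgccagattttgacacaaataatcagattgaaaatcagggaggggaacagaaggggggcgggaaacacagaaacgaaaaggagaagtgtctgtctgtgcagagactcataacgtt
Tek: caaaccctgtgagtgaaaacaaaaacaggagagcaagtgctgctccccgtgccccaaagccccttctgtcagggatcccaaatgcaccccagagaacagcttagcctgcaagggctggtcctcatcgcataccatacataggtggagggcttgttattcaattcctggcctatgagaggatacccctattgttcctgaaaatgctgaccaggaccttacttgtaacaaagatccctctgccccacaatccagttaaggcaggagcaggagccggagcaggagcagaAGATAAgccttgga
The Gfi1b window held TGATAA once and the Tek window AGATAA once, and the windows of Gata2 and Hoxa9 held neither, on either strand. None of the 4 windows held the ETS motif CCGGAA on either strand. A window was found for 10394 of 14102 tested genes (73.7%), and 10.5% of these held a GATA motif and 28.3% the ETS motif, with no overlap of the motifs' letters required. A comparison of these shares between called and other genes is void, because fewer than 80% of the genes have a window. A match is a description of letters, not of binding.

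Tek, which encodes the angiopoietin receptor tyrosine kinase TIE2 and helps to keep stem cells out of cycle, fell in all 4 knockouts. It had 0.786, 1.27, 0.242 and 0.553 CPM in knockouts, against 11.3, 12.1, 5.77 and 10.3 CPM in controls, and fell by 3.70 ± 0.42 (edgeR, Benjamini-Hochberg adjusted p = 5.21e-06). All knockouts lay far below all controls. Of 21 tested (28 listed) angiopoietin receptor and endothelial-type genes, 9 fell (42.9%, against 15.9% over all genes) and 2 rose (9.52%, against 15.2%). The list's median log2 ratio was -0.329, -0.086, -0.307 and -0.324 in knockouts 1 to 4. Mmrn1, a multimerin stored in platelets and endothelium, had 1.77, 1.6, 0.887 and 2.31 CPM in knockouts, against 19.3, 12.4, 13 and 14.9 CPM in controls. Robo4, a guidance receptor of endothelium and stem cells, had 0.982, 1.1, 0.645 and 0.645 CPM in knockouts, against 8.73, 6.52, 6.19 and 5.67 CPM in controls. Emcn, the sialomucin endomucin, had 0.0982, 0.385, 0.242 and 0.738 CPM in knockouts, against 1.75, 3.34, 1.75 and 2.8 CPM in controls. Eng, a coreceptor of the TGF-beta family, fell by 1.20 ± 0.13, Tie1 by 1.06 ± 0.19, Angpt1, which encodes the ligand of TIE2, by 1.15 ± 0.21, and Vwf, of platelets and endothelium, by 1.10 ± 0.26. The 2 genes that rose were Flt1, a VEGF receptor, with 11.8, 10.1, 11.5 and 8.11 CPM in knockouts, against 3.34, 2.36, 3.26 and 2.67 CPM in controls, and Sox18, an endothelial factor at low level, with 1.18, 1.87, 1.29 and 1.48 CPM in knockouts, against 0.379, 0.0815, 0.251 and 0.0683 CPM in controls. Flt1 and Kdr, both VEGF receptors, thus went opposite ways, with Kdr at 0.0982, 0.055, 0.323 and 0 CPM in knockouts, against 1.59, 1.06, 0.418 and 0.82 CPM in controls.

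Of 26 tested (28 listed) stem cell surface genes, 10 fell (38.5%, against 15.9% over all genes) and 2 rose (7.69%, against 15.2%). Slamf1 encodes CD150, the marker that separates long-term stem cells from other LSK cells. Its values were 0.196, 0.88, 0.726 and 0.184 CPM in knockouts, against 6.07, 4.4, 3.34 and 4.38 CPM in controls. Cd93, a C-type lectin receptor, fell by 1.07 ± 0.15, Itga2b, which encodes CD41, by 1.54 ± 0.12, Kit by 0.65 ± 0.10, Adgrg1, an adhesion receptor, by 0.75 ± 0.15 and Cd27 by 0.55 ± 0.14. The members that rose were Procr, which encodes EPCR, another marker of long-term stem cells, and Alcam, a cell adhesion molecule. Procr had 9.82, 13.5, 12.1 and 13.5 CPM in knockouts, against 5.46, 3.83, 6.69 and 7.31 CPM in controls, so Slamf1 and Procr, which mark overlapping cells, went opposite ways. Without control 2 the rise of Procr was 0.90 and was not called (edgeR, Benjamini-Hochberg adjusted p = 0.0545). With knockout 2 alone 3 surface genes were called lower.

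Cytokine receptors followed, with 14 lower (43.75%, against 15.9% over all genes) and 1 higher of 32 tested (33 listed). Flt3, the FLT3 ligand receptor of multipotent progenitors, had 83.4, 146, 98.9 and 127 CPM in knockouts, against 174, 210.5, 234 and 260.2 CPM in controls. Il7r, of lymphoid progenitors, had 0.786, 1.82, 0.161 and 1.2 CPM in knockouts, against 8.2, 6.11, 4.6 and 3.35 CPM in controls. Il1rl1, the interleukin-33 receptor, had 4.71, 5.06, 5.16 and 5.99 CPM in knockouts, against 28.5, 21.5, 13.3 and 16.8 CPM in controls. All 3 were lower in every knockout than in every control. Il18r1 fell by 1.34 ± 0.32 and Il6st, the shared signalling chain of the interleukin-6 family, by 0.76 ± 0.17, and Il4ra rose by 0.37 ± 0.09. Downstream, the list of 21 STAT5 and cytokine response genes held 6 that fell (28.6%, against 15.9% over all genes) and 3 that rose (14.3%, near the 15.2% over all genes). Stat5a fell by 0.60 ± 0.09, Stat5b by 0.48 ± 0.08, and the feedback inhibitor Cish by 0.97 ± 0.23, while the survival gene Bcl2l1 rose by 0.54 ± 0.12. The counts of lower genes with knockout 2 alone were 2 for the receptors and 0 for the STAT5 genes, and the STAT5 count was 3 without knockout 3.

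Among the 45 lists, megakaryocyte genes had the largest share of falls. Of 31 tested (34 listed), 24 fell (77.4%, against 15.9% over all genes) and 1 rose, with a median log2 fold change of -1.64. The median was low in each knockout taken singly, at -1.74, -1.58, -1.53 and -1.50, and with knockout 2 alone 15 were called lower. Cavin2, a caveolar coat protein abundant in platelets, had 0.0982, 0.385, 0.161 and 0.645 CPM in knockouts, against 22, 14.3, 10.3 and 11.7 CPM in controls, and fell by 5.43 ± 0.41 (edgeR, Benjamini-Hochberg adjusted p = 5.54e-08). Gng11, a G protein gamma subunit, had 0.687, 0.055, 0.645 and 0.369 CPM in knockouts, against 8.65, 7.09, 7.94 and 6.77 CPM in controls. Rab27b, which acts in granule secretion, had 0.589, 1.04, 0.807 and 1.48 CPM in knockouts, against 10.9, 8.56, 6.86 and 10.9 CPM in controls. The knockout libraries held almost none of the transcripts of these genes. The platelet chemokine gene Pf4 had 4.71, 4.62, 7.75 and 7.28 CPM in knockouts, against 35.7, 15.7, 15.6 and 17.6 CPM in controls. Gp5, a subunit of the von Willebrand factor receptor, fell by 1.37 ± 0.26, Gp1bb by 2.41 ± 0.35, F2r, a thrombin receptor, by 1.82 ± 0.21, Treml1 by 2.67 ± 0.48, Trpc6 by 3.31 ± 0.50 and Zfpm1, which encodes the GATA cofactor FOG1, by 0.95 ± 0.16. The member that rose was Itgb3, with 46.8, 59.8, 49.2 and 55.7 CPM in knockouts, against 37.6, 35.9, 22.4 and 28.6 CPM in controls. Its integrin partner Itga2b had 49, 54.9, 65.8 and 58.1 CPM in knockouts, against 182, 148, 135 and 199 CPM in controls. The pair makes the fibrinogen receptor of platelets, and its 2 genes went opposite ways in all 4 knockouts. With controls 1 and 2 left out, 21 members were called lower.

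**Figure D2:**
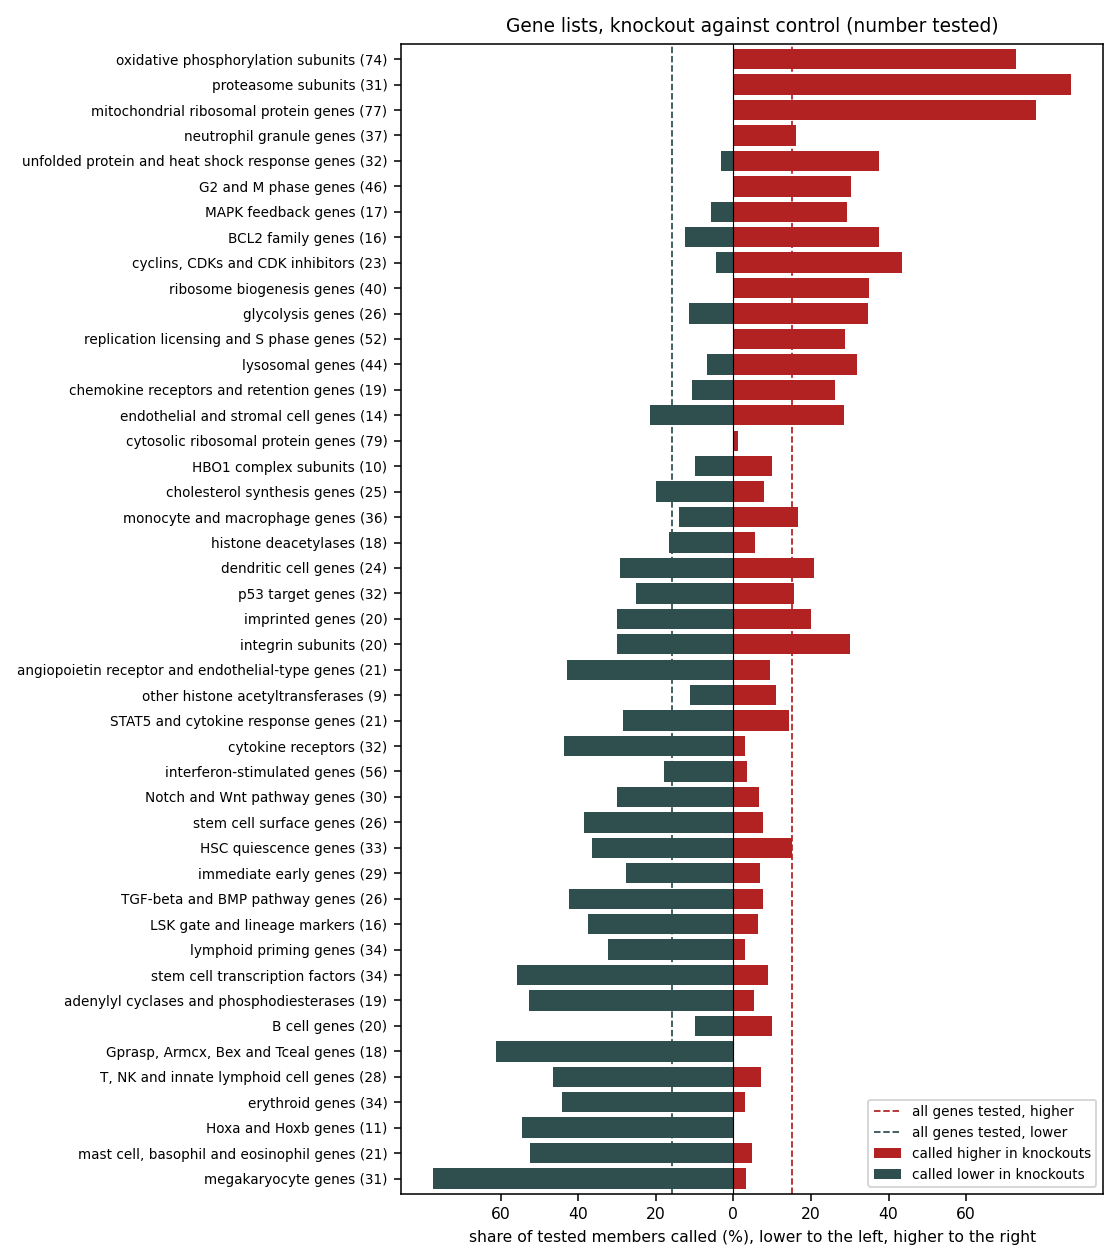
Share of the tested members of each gene list called higher (red, to the right) or lower (dark, to the left) in knockout against control LSK cells, in percent, ordered by the median log2 fold change; the number tested is in brackets and the dashed lines give the shares over all 14102 genes, 15.2% higher and 15.9% lower. Megakaryocyte genes stand at the bottom with 77.4% lower and oxidative phosphorylation subunits at the top with 73% higher.

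For erythroid genes the controls themselves were split. Of 34 tested (39 listed), 15 fell (44.1%, against 15.9% over all genes) and 1 rose (2.94%, against 15.2%). The median log2 fold change was -0.78. Klf1, the master factor of red cell genes, had 6.48, 5.28, 6.13 and 9.68 CPM in knockouts, against 56, 40.3, 13.5 and 15 CPM in controls. Car1, a carbonic anhydrase of early erythroid cells, had 8.45, 8.58, 5.41 and 17.6 CPM in knockouts, against 212, 146, 39.96 and 45.5 CPM in controls. Epor, the erythropoietin receptor, had 4.32, 3.58, 3.23 and 3.87 CPM in knockouts, against 28.1, 20.7, 6.69 and 8.82 CPM in controls. Controls 1 and 2, both labelled female, stood at 2 or more times controls 3 and 4, both labelled male, in each of these genes, and the 4 knockouts lay below all controls. The blood group gene Ermap had 11.2, 12.2, 8.63 and 9.31 CPM in knockouts, against 109.9, 74.7, 14 and 15.4 CPM in controls, and Ank1, of the red cell membrane skeleton, had 5.4, 5.67, 3.39 and 4.33 CPM in knockouts, against 34.8, 26.7, 4.43 and 4.31 CPM in controls. In Ank1 the knockouts overlapped controls 3 and 4, and its call was lost without control 1 (edgeR, Benjamini-Hochberg adjusted p = 0.0666). Summed over the list, the level was 1338 to 1371 CPM in knockouts and 1569 to 2619 CPM in controls. Without controls 1 and 2 the median was -0.01 and 11 genes were called lower; it was -0.42 without control 1 alone. Without both, the log2 fold change of Ermap was -0.52 and that of Ank1 0.10, and neither was called, while Klf1 (-1.07), Car1 (-2.12) and Epor (-1.07) were still called lower. With knockout 2 alone 6 were called lower. Gata1, the GATA factor of the erythroid and megakaryocyte lineages, had 4.91, 5.06, 5.97 and 6.91 CPM in knockouts, against 41.4, 31, 15.6 and 26.1 CPM in controls, and fell by 2.32 ± 0.24. Mfsd2b, a sphingosine phosphate transporter of red cells and platelets, had 14, 8.91, 12.3 and 12.9 CPM in knockouts, against 124, 104, 62.5 and 76.7 CPM in controls, and Trib2, a pseudokinase, 1.47, 1.32, 0.887 and 1.84 CPM in knockouts, against 30.9, 26.2, 11.9 and 17.6 CPM in controls, and both were lower in knockouts than in each control. The gene that rose was a beta-globin gene, Hbb-bs, at low level, with 4.81, 4.29, 0.807 and 1.57 CPM in knockouts, against 0.531, 0.163, 0.251 and 0.137 CPM in controls; its near-identical copy Hbb-b1 had 5.6, 6.71, 5.97 and 10.4 CPM in knockouts, against 2.05, 0.978, 0.502 and 1.78 CPM in controls, and reads cannot be assigned surely between such copies.

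**Figure D3:**
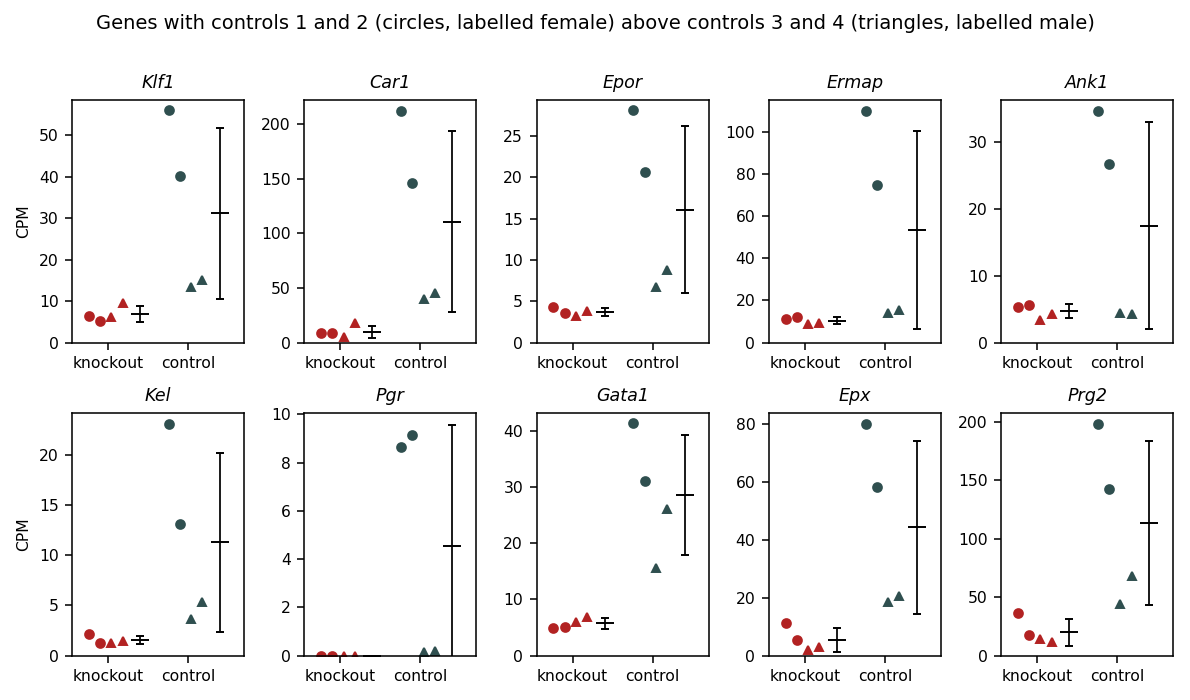
Level in CPM of 10 genes, chosen after their values were seen, in the 4 knockout (red) and 4 control (dark) LSK libraries on linear axes starting at 0; circles are replicates 1 and 2, labelled female, triangles replicates 3 and 4, labelled male, and the black mark is the mean with 1 SD. In the controls the circles lie above the triangles in every panel, while the knockouts lie close together near the bottom of each panel.

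The split among controls was looked at after the data were seen, by the labelled sex of the mice. In this fit only the Mx1Cre groups were divided by sex, while each CreER group, of both sexes, stayed whole. Genes that differ by sex thus widen the shared spread, so the counts below can understate differences between the sexes. Among the 4 knockouts 2 genes (0.0142%) were called between mice labelled female and male, and none of the 34 erythroid genes was among them (edgeR, 1669 genes at an unadjusted p under 0.05). Among the 4 controls 61 genes (0.433%) were called, 54 higher (0.383%) and 7 lower in females, and 13 of the 34 erythroid genes tested were among the 54. The median log2 difference of female over male libraries for erythroid genes was 0.07 in knockouts and 0.94 in controls. For B cell genes it was larger and present in both groups, at 1.64 in knockouts and 1.23 in controls. The median effect of the knockout on erythroid genes was -1.15 in females and -0.12 in males. On B cell genes it was -0.51 in females and -0.71 in males. Tested directly, the difference of the effect between the sexes was called in 1 gene (0.00709%), the MHC class I gene H2-Q7 (adjusted p = 0.0442, edgeR with Benjamini-Hochberg adjustment), with 804 genes at an unadjusted p under 0.05, and in no erythroid gene. Over all genes 1486 were called in females and 2881 in males. With 2 mice of each sex in a group, sex and anything else these mice share cannot be told apart.

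Genes of mast cells, basophils and eosinophils also fell. Of 21 tested (27 listed), 11 fell (52.4%, against 15.9% over all genes) and 1 rose (4.76%, against 15.2%). The medians were -1.65, -1.50, -1.46 and -1.29 in knockouts 1 to 4. Cpa3, the mast cell carboxypeptidase, had 20.4, 30.7, 39.5 and 48.3 CPM in knockouts, against 69.96, 76, 89.4 and 115 CPM in controls. Ms4a2, the beta chain of the IgE receptor, had 3.04, 6.22, 5.08 and 4.61 CPM in knockouts, against 18.1, 14, 20.2 and 20.1 CPM in controls, and its alpha chain Fcer1a 4.12, 4.62, 3.39 and 3.69 CPM in knockouts, against 26.9, 19.2, 15.8 and 31.2 CPM in controls. In these genes every knockout lay below every control. Slc18a2, which loads histamine into granules, fell by 2.11 ± 0.23 and Mcpt8, a basophil protease, by 1.92 ± 0.49. The eosinophil granule genes Epx and Prg2 were split among controls like the erythroid genes, with Epx at 11.4, 5.23, 1.86 and 2.95 CPM in knockouts, against 79.98, 58.2, 18.5 and 20.7 CPM in controls. Prg2 had 36, 17.7, 13.8 and 11.4 CPM in knockouts, against 198, 143, 44.1 and 68.4 CPM in controls. The member called higher was Cma1, a chymase, listed at 0 to 1.32 CPM in knockouts and 0 to 0.167 CPM in controls, with overlapping groups, and it was not called without knockout 2 or without control 1, 2 or 4 (edgeR, Benjamini-Hochberg adjusted p = 0.0687 to 0.301). Epx and Prg2 were not called without both controls 1 and 2 (adjusted p = 0.115 and 0.121, same test). Without these controls 7 genes of the list were called lower, and 4 with knockout 2 alone.

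Genes of cyclic nucleotide and TGF-beta signalling fell in knockouts. Adcy6, an adenylyl cyclase, which makes cyclic AMP, had 2.65, 5.01, 3.07 and 4.98 CPM in knockouts, against 66.5, 57, 42 and 48.7 CPM in controls, and fell by 3.74 ± 0.21 (edgeR, Benjamini-Hochberg adjusted p = 1.87e-09). Among 19 tested (25 listed) adenylyl cyclases and phosphodiesterases, 10 fell (52.6%, against 15.9% over all genes) and 1 rose (5.26%, against 15.2%). Without controls 1 and 2, 6 were called lower. This list's median log2 fold change was -0.513, and -0.186 with knockout 2 alone. Pde5a, which breaks down cyclic GMP, had 2.65, 1.65, 1.77 and 1.48 CPM in knockouts, against 14.2, 12.9, 7.52 and 8.75 CPM in controls. Pde10a, which breaks down both cyclic nucleotides, had 0.491, 0.22, 0.161 and 0.645 CPM in knockouts, against 6.15, 2.2, 1.42 and 2.53 CPM in controls. Pde2a fell by 2.25 ± 0.33 and Adcy3 by 1.11 ± 0.21, and Pde3b rose by 0.61 ± 0.13. Of 26 tested (30 listed) TGF-beta and BMP pathway genes 11 fell (42.3%, against 15.9% over all genes) and 2 rose (7.69%, against 15.2%). The list's median log2 fold change was -0.36, and 0.015 with knockout 2 alone. Tgfbr3, the coreceptor betaglycan, had 4.32, 5.01, 3.23 and 5.99 CPM in knockouts, against 32.9, 34.6, 21.4 and 26.7 CPM in controls. Ltbp1, which binds latent TGF-beta in the matrix, had 0.393, 0.165, 0.0807 and 0.184 CPM in knockouts, against 4.25, 2.77, 1.67 and 1.91 CPM in controls, and Ltbp3 20.3, 26.5, 23 and 26.6 CPM in knockouts, against 66.8, 75.5, 66.3 and 82.2 CPM in controls. The ligand-binding and storage genes were thus low in each knockout. Further members that fell were the type I receptor Acvr1 (-1.18 ± 0.21), the inhibitor Smad7 (-0.76 ± 0.18) and the corepressor Ski (-0.88 ± 0.15), and Id2, a target gene, rose by 0.78 ± 0.21.

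Of 30 tested (37 listed) Notch and Wnt genes 9 fell (30.0%, against 15.9% over all genes) and 2 rose (6.67%, against 15.2%). Jag1, a Notch ligand, rose, with 6.58, 4.79, 6.86 and 4.42 CPM in knockouts, against 1.06, 1.06, 1.5 and 0.889 CPM in controls. The Wnt receptor gene Fzd4 had 0, 0, 0 and 0.0922 CPM in knockouts, against 0.531, 0.489, 0.418 and 0.889 CPM in controls, and Fzd1 0.196, 0.055, 0 and 0 CPM in knockouts, against 0.986, 0.652, 0.752 and 0.752 CPM in controls. Tcf7, a nuclear partner of beta-catenin, had 0.982, 2.81, 1.21 and 0.461 CPM in knockouts, against 8.73, 9.94, 7.61 and 7.72 CPM in controls. The knockouts lay above all controls in Jag1 and below all controls in the other 3 genes. The count of lower genes was 5 with the gene length trend removed or without control 1, control 4 or knockout 4, 4 without controls 1 and 2 and 1 with knockout 2 alone. Of 20 tested (24 listed) integrin subunits 6 fell and 6 rose (30.0% each, against 15.9% and 15.2% over all genes). The collagen-binding alpha chains fell, Itga2 with 0.491, 0.385, 0.161 and 0.277 CPM in knockouts, against 2.12, 2.2, 2.42 and 2.8 CPM in controls and Itga1 with 2.55, 4.24, 2.34 and 2.31 CPM in knockouts, against 15.9, 16.6, 12.8 and 11.4 CPM in controls, and Itgav fell by 0.85 ± 0.14. Itgb5 rose by 0.75 ± 0.16. The count of integrin genes that rose was 3 without control 1, 2 or 3, each left out alone, 2 without controls 1 and 2 and 2 with knockout 2 alone. Marcks, an actin-linked substrate of protein kinase C, had 2.36, 2.86, 1.29 and 4.42 CPM in knockouts, against 28.1, 27.5, 24.8 and 28.9 CPM in controls, and Ica1, an arfaptin-related gene, 4.22, 4.18, 4.2 and 3.78 CPM in knockouts, against 39.2, 32.4, 33.2 and 28.9 CPM in controls.

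Among other blood lineages, a part of the lymphoid genes fell. Of 34 tested (35 listed) lymphoid priming genes 11 fell (32.4%, against 15.9% over all genes) and 1 rose, although with knockout 2 alone 1 was called lower. Dntt, the terminal transferase of early lymphoid cells, had 27.5, 63.3, 29.4 and 38.9 CPM in knockouts, against 112, 121, 106 and 103 CPM in controls. Ets1 had 11.3, 13.4, 10.2 and 6.73 CPM in knockouts, against 40.4, 24.7, 27.4 and 30.8 CPM in controls. The groups did not overlap in either gene. Bcl11a, a repressor needed for lymphoid and stem cells, fell by 1.01 ± 0.12 and Mef2c by 0.65 ± 0.13. Of 28 tested (38 listed) T, NK and innate lymphoid cell genes 13 fell (46.4%, against 15.9% over all genes) and 2 rose (7.14%, against 15.2%). Without controls 1 and 2, 8 were called lower. This list's median log2 fold change was -0.712, and -0.525 with knockout 2 alone. Rora, a factor of innate lymphoid cells, had 0, 0.33, 0.161 and 0 CPM in knockouts, against 1.44, 1.14, 1.00 and 1.37 CPM in controls, all low levels. Summed over the list the level was 351 to 457 CPM in knockouts and 365 to 410.1 CPM in controls, with overlap between the groups. Of 20 tested (25 listed) B cell genes 2 fell and 2 rose, and the summed level was 749 to 1055 CPM in knockouts and 703 to 1048 CPM in controls.

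Neutrophil genes were called higher about as often as all genes. Of 37 tested (37 listed) neutrophil granule genes 6 rose (16.2%, against 15.2% over all genes) and 0 fell, and the summed level was 23630 to 34010 CPM in knockouts and 23320 to 24780 CPM in controls. Ms4a3, of granulocyte and monocyte progenitors, had 969, 539, 844 and 744 CPM in knockouts, against 374, 339.8, 347 and 276 CPM in controls. Anxa1, a calcium-dependent membrane protein, had 484, 248, 384 and 381 CPM in knockouts, against 179.5, 172, 202 and 231 CPM in controls. Knockout 2 was the lowest knockout in Ms4a3, and its median over the list was 0.02, against 0.69, 0.64 and 0.48 in knockouts 1, 3 and 4. The count was 15 without knockout 2 and also 15 in a fit of the 8 libraries alone, 3 without control 2, 2 without controls 1 and 2 and 0 with knockout 2 alone. Of 36 tested (38 listed) monocyte and macrophage genes 6 rose (16.7%) and 5 fell (13.9%), near the shares over all genes (15.2% and 15.9%). The mannose receptor gene Mrc1 had 4.62, 6.44, 4.6 and 7.56 CPM in knockouts, against 1.37, 1.87, 1.00 and 0.889 CPM in controls, and Irf8, a factor of monocytes and dendritic cells, 248, 279, 282 and 266 CPM in knockouts, against 517, 524, 405 and 444 CPM in controls. Lpl, the lipoprotein lipase, fell to 0.295, 0.605, 0.242 and 0.184 CPM in knockouts, against 1.37, 1.87, 3.01 and 3.55 CPM in controls. These counts were 2 higher and 2 lower without controls 1 and 2, and 1 higher and 0 lower with knockout 2 alone. Of 14 tested (32 listed) endothelial and stromal cell genes, 4 rose (28.6%, against 15.2% over all genes) and 3 fell (21.4%, against 15.9%), and 18 did not pass the filter. The list's summed level was 312 to 371 CPM in knockouts and 339 to 382 CPM in controls. Col4a1, a basement membrane collagen, had 48.7, 64.8, 65.3 and 58.1 CPM in knockouts, against 15.1, 17.5, 18 and 22 CPM in controls. Pdgfrb, a receptor of pericytes, had 6.78, 13.4, 14 and 15.2 CPM in knockouts, against 35.5, 52.3, 55.2 and 60.2 CPM in controls. Of the defining genes of these cells, Cdh5 reached at most 0.491 CPM in knockouts and 0.418 CPM in controls, Cxcl12 reached at most 1.54 CPM in knockouts and 0.455 CPM in controls, Lepr reached at most 0.44 CPM in knockouts and 0.167 CPM in controls and Col1a1 reached at most 0.786 CPM in knockouts and 0.41 CPM in controls. Pecam1, which blood progenitors express too, had 107, 120.1, 110.5 and 119.5 CPM in knockouts, against 142, 160.4, 120.2 and 119.8 CPM in controls. Whether cells other than LSK contributed to any of these results was not tested.

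The genes that rose most included feedback genes of the MAP kinase pathway. Etv5, an ETS factor that growth factor signalling induces, had 31.7, 38.2, 32.8 and 38.7 CPM in knockouts, against 9.03, 11.5, 11.7 and 12.7 CPM in controls, and rose by 1.65 ± 0.15 (edgeR, Benjamini-Hochberg adjusted p = 5.9e-07). Its relative Etv4 had 1.47, 1.65, 3.07 and 3.13 CPM in knockouts, against 0, 0, 0.0836 and 0.137 CPM in controls. Dusp4 and Dusp6, phosphatases that switch MAP kinases off, rose with them, Dusp4 with 4.32, 6.82, 6.37 and 4.33 CPM in knockouts, against 0.911, 1.96, 1.17 and 0.547 CPM in controls. Dusp6 had 42.9, 51, 49.3 and 54.9 CPM in knockouts, against 32.2, 24.4, 18.9 and 29.7 CPM in controls. In these genes every knockout, knockout 2 included, lay above every control. Of 17 tested (19 listed) MAPK feedback genes 5 rose (29.4%, against 15.2% over all genes), 1 fell and 11 were not called. The list's median log2 ratio was -0.085, 0.435, 0.094 and 0.126 in knockouts 1 to 4. Its median log2 fold change was 0.27, and -0.008 without knockout 2. The gene that fell was Dusp5, by 1.13 ± 0.25, and Spry2 (log2 fold change 0.33 ± 0.17) did not pass the test.

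Cyclin D1, the product of Ccnd1, links growth signals to the cell cycle. Ccnd1 had 41.2, 60.1, 64.9 and 66.9 CPM in knockouts, against 17.8, 17, 25.8 and 25.6 CPM in controls. Of 23 tested (26 listed) cyclins, CDKs and CDK inhibitors 10 rose (43.5%, against 15.2% over all genes) and 1 fell (4.35%, against 15.9%). Ccnd2 rose by 0.53 ± 0.10, Ccne1 by 0.80 ± 0.12, Cdk4 by 0.35 ± 0.09 and Cdk1 by 0.61 ± 0.17. Among inhibitors, Cdkn1b, which encodes p27, fell, with 46.8, 48.4, 44.2 and 48.8 CPM in knockouts, against 71.2, 63.9, 59.7 and 72.9 CPM in controls. Cdkn1a, which encodes p21, rose by 0.73 ± 0.17, and Cdkn1c, which encodes p57, with 4.91, 6.33, 5.41 and 8.94 CPM in knockouts, against 1.97, 1.39, 1.92 and 3.96 CPM in controls, by 1.45 ± 0.38. The 3 inhibitors of this family thus moved in different directions. The count of genes that rose was 4 without controls 1 and 2 and 2 with knockout 2 alone.

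Genes of the G2 and M phases were higher in knockouts by small amounts. Of 46 tested 14 rose (30.4%, against 15.2% over all genes) and 0 fell. The median log2 fold change was 0.33 and was alike in the 4 knockouts, at 0.29, 0.35, 0.32 and 0.33. With the replicate number as a block 27 rose and 1 fell, and in a fit of the 8 libraries alone 30 rose. The count was 4 without controls 1 and 2 and 0 with knockout 2 alone. Birc5, which encodes survivin, had 147, 119, 166 and 142 CPM in knockouts, against 98.7, 90.1, 98.1 and 83.7 CPM in controls. Bub1, a spindle checkpoint kinase, had 149, 143, 129 and 135 CPM in knockouts, against 103, 98.6, 103 and 88 CPM in controls. Their levels moved little but without overlap between groups. Of 52 licensing and S phase genes 15 rose (28.85%, against 15.2% over all genes), among them Rrm2 (0.49 ± 0.09), Lig1 (0.39 ± 0.10) and Gmnn (0.53 ± 0.14), and 0 fell. This count was 8 without knockout 4, 1 without controls 1 and 2 and 0 with knockout 2 alone. The list of HSC quiescence genes, which shares members with the lists above, had 12 lower and 5 higher of 33 tested (34 listed), or 36.4% and 15.2%, against 15.9% and 15.2% over all genes. It had 3 higher without control 2, 1 higher without controls 1 and 2, and 3 lower and 0 higher, with a median of 0.045, with knockout 2 alone. In that list Egr1, an immediate early factor, had 1.28, 2.92, 2.26 and 2.4 CPM in knockouts, against 14, 10.3, 3.51 and 11.5 CPM in controls, and fell by 2.12 ± 0.44, and Txnip, an inhibitor of thioredoxin, fell by 0.78 ± 0.19.

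Outside the lists, 3 genes stood out by their p-value in the test against a fold of 1.5. Slc6a9, a glycine transporter gene, had 8.45, 11.9, 12.1 and 12.2 CPM in knockouts, against 1.82, 1.79, 1.92 and 1.37 CPM in controls. Ptgs1, which encodes the prostaglandin synthase COX-1, had 129, 108, 111 and 101 CPM in knockouts, against 40.4, 36.6, 26.6 and 26.2 CPM in controls. Spp1, which encodes osteopontin, had 29.9, 13.3, 23.3 and 25.4 CPM in knockouts, against 3.95, 3.59, 2.34 and 3.01 CPM in controls. All 4 knockouts lay far above all controls in each. They rose by 2.69 ± 0.22, 1.79 ± 0.13 and 2.83 ± 0.28 on the log2 scale (edgeR test against no change, Benjamini-Hochberg adjusted p = 1.45e-07, 5.37e-08 and 1.3e-06). Nebl, a nebulin-like actin-binding protein, had 22, 16.1, 9.44 and 9.13 CPM in knockouts, against 2.66, 2.53, 1.42 and 0.957 CPM in controls, and Aoc1, a diamine oxidase, 6.87, 4.79, 7.75 and 6.73 CPM in knockouts, against 0.683, 0.489, 0.418 and 1.5 CPM in controls. On the lower side the corresponding genes were Zfp970, a zinc finger gene, and Ppic, a cyclophilin. Zfp970 had 0.196, 0.275, 0.484 and 0.369 CPM in knockouts, against 13, 13.3, 13.2 and 17.8 CPM in controls, and Ppic 2.95, 1.6, 1.94 and 2.21 CPM in knockouts, against 28.5, 28.7, 27 and 23 CPM in controls. The knockouts held a small part of the control level in both.

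Some genes had no count in a whole group. Folds are then given as bounds against a floor of 3 counts over the 4 libraries of that group. Kcnj5, a potassium channel gene, had 0 counts in the 4 knockouts, against 6.37, 3.99, 3.85 and 3.69 CPM in controls, and was at least 77-fold lower. Slc6a15, an amino acid transporter gene, was at 0 in knockouts, against 2.28, 1.96, 1.59 and 1.91 CPM in controls, at least 33.3-fold lower. Dmd, the dystrophin gene, was at 0 in knockouts, against 1.29, 1.96, 2.01 and 1.44 CPM in controls, at least 28.8-fold lower. These 3 genes were present in each control. Pgr, the progesterone receptor gene, was at 0 in knockouts, but its controls were split, with 8.65, 9.13, 0.167 and 0.205 CPM, so its bound of 78-fold rests on controls 1 and 2. In the other direction Cacng8, a channel subunit gene, was at 0 in controls and had 1.38, 0.77, 1.29 and 0.738 CPM in knockouts, at least 18.1-fold higher, and Mpzl2, an adhesion gene, had 0.786, 1.6, 0.807 and 1.94 CPM in knockouts, at least 22.2-fold higher. Immunoglobulin variable segments such as Igkv1-122 (at 0 in knockouts, with 0, 11.7, 0 and 0 CPM in controls) were present in single libraries.

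Genes of energy metabolism and protein turnover rose in large numbers but by small amounts, which were smaller still in knockout 2. Of 74 tested (75 listed) oxidative phosphorylation subunits 54 rose (73%, against 15.2% over all genes) and 0 fell, with a median log2 fold change of 0.49. Cyc1, of complex III, had 274, 238, 307 and 264 CPM in knockouts, against 176, 166, 204 and 176 CPM in controls. Cox6c, of complex IV, had 93.2, 64.9, 103 and 96 CPM in knockouts, against 56.6, 56.6, 56.4 and 56.6 CPM in controls. Knockout 2 was the lowest knockout in both. The list's median was 0.48, 0.15, 0.65 and 0.61 in knockouts 1 to 4. Mitochondrial ribosomal protein genes had 60 higher (77.9%) and 0 lower of 77, with medians of 0.45, 0.13, 0.56 and 0.53. Proteasome subunits had 27 higher (87.1%) and 0 lower of 31, with medians of 0.49, 0.09, 0.57 and 0.57. Psmc3, an ATPase of the proteasome cap, had 312, 224, 332 and 324 CPM in knockouts, against 199.6, 185, 204 and 197 CPM in controls. With knockout 2 alone 0 genes of these 3 lists were called, although the smaller number of samples lowers every count in that fit. Without controls 1 and 2 the counts of higher genes were 22, 13 and 7, and the mitochondrial ribosome count was 38 without control 2 and 39 without knockout 3. Cytosolic ribosomal protein genes, in contrast, had 1 higher (1.27%) and 0 lower of 79, with medians of -0.19, -0.30, 0.30 and 0.09.

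**Figure D4:**
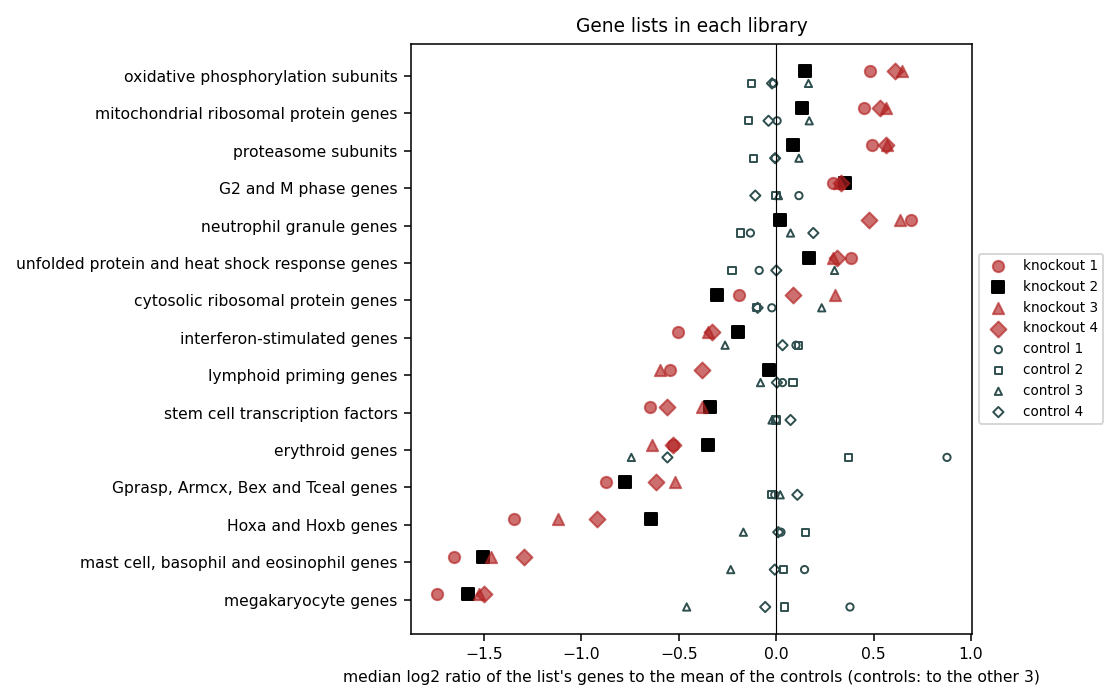
Median log2 ratio of the genes of 15 lists in each library, for the 4 knockouts to the mean of the controls (filled markers, knockout 2 in black) and for each control to the other 3 (open markers). Megakaryocyte, mast cell and Hox genes are low in all 4 knockouts, oxidative phosphorylation, mitochondrial ribosome and proteasome genes are near the controls in knockout 2, and erythroid genes separate controls 1 and 2 from controls 3 and 4.

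The genes of these metabolic lists are short, and gene length moved with the knockout libraries. For oxidative phosphorylation subunits the median exon length was 679 bases, against 2619 bases over all genes tested. Per doubling of exon length, the log2 ratio to the control mean changed by -0.138, -0.0227, -0.177 and -0.188 in knockouts 1 to 4, whereas the controls, each set against the other 3, had -0.0056, 0.0207, -0.0234 and 0.0083. Knockouts 1, 3 and 4 were thus steeper than any control, and knockout 2 lay within the range of the controls. The difference between the groups had an exact two-sided permutation p of 0.0571, where 0.0286 is the smallest that 4 against 4 libraries allow. In the shortest quintile of genes the median log2 fold change was 0.17 and 23.5% were called higher, and in the longest quintile it was -0.21 and 4.61% were called higher. Called-lower genes had a median length of 3626 bases and called-higher genes 1843 bases. With the trend removed in each library, 46 oxidative phosphorylation, 42 mitochondrial ribosomal and 23 proteasome genes were called higher and 0 lower. In all 4267 genes were then called, 3574 of them called with the same sign before and 0 with the opposite sign. Progenitor libraries of the same mice varied in slope in both genotypes, from -0.206 to 0.103 in knockouts and from -0.348 to 0.169 in controls. Whether the trend is a property of the RNA, the library or the cells was not tested.

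**Figure D5:**
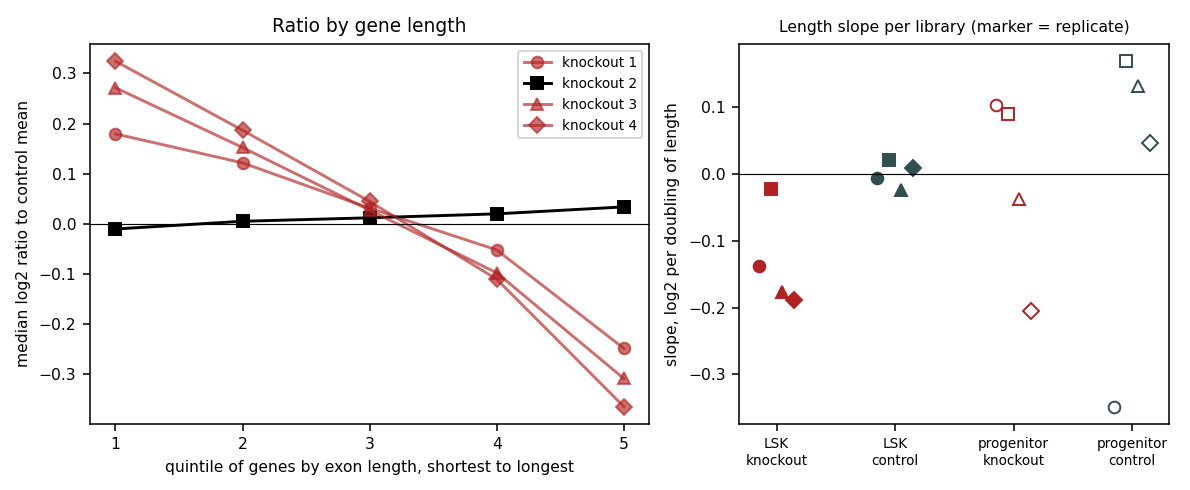
Left, median log2 ratio to the control mean in quintiles of genes by exon length, shortest to longest, for knockouts 1 to 4 (knockout 2 in black). Right, slope of that ratio in log2 per doubling of length in each LSK (filled) and progenitor (open) Mx1Cre library, knockouts left of controls, with marker shapes giving the replicate. Knockouts 1, 3 and 4 fall across the quintiles while knockout 2 stays near 0, and the progenitor slopes spread more widely than those of LSK cells.

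Stress, survival and glycolysis genes are given together. Over all genes 15.2% rose and 15.9% fell. For unfolded protein and heat shock response genes these shares were 37.5% and 3.125%. They were 37.5% and 12.5% for BCL2 family genes, and 34.6% and 11.5% for glycolysis genes. Of 32 unfolded protein and heat shock response genes 12 rose and 1 fell. Atf4, the factor of the integrated stress response, had 419, 225, 353 and 344 CPM in knockouts, against 214, 195, 222 and 220.2 CPM in controls, and its target Chac1 10.02, 2.42, 3.07 and 2.58 CPM in knockouts, against 0.379, 0.652, 1.25 and 1.5 CPM in controls. Knockout 1 was far above the other knockouts in Chac1, whose rise was 1.49 without it, against 2.22 ± 0.50 with it. The count of genes that rose was 6 without control 2, 7 without control 1, control 4, knockout 1, knockout 3 or knockout 4, each left out alone, and 0 both without controls 1 and 2 and with knockout 2 alone. Of 16 tested (23 listed) BCL2 family genes 6 rose and 2 fell, with 0 higher with knockout 2 alone. The killers Bak1 (0.53 ± 0.10), Bax (0.57 ± 0.13), Bid (0.45 ± 0.10) and Bmf (1.49 ± 0.34) rose along with the protector Bcl2l1, and the protector Bcl2 fell, with 80.2, 131, 99.3 and 100.2 CPM in knockouts, against 129, 168, 182 and 161 CPM in controls. Of 32 p53 target genes tested 5 rose (15.6%, near the 15.2% over all genes) and 8 fell (25.0%, against 15.9%). Bax and Cdkn1a rose, while Sesn1 (-1.25 ± 0.17), Zmat3 (-1.13 ± 0.19) and Plk2 (-3.28 ± 0.72, and -2.68 without control 2) fell. The p53 counts were 3 higher without control 2 or knockout 3, 1 higher without controls 1 and 2, and 0 higher and 2 lower with knockout 2 alone. Of 26 glycolysis genes 9 rose and 3 fell, with 4 higher without controls 1 and 2 and 0 with knockout 2 alone. Ldha, a lactate dehydrogenase subunit gene, rose by 0.58 ± 0.14 and Ldhb, the other subunit gene, fell, with 9.62, 7.92, 9.12 and 9.13 CPM in knockouts, against 23.4, 26.2, 19 and 18.7 CPM in controls.

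Both groups had received an inducer of interferon. Of 56 interferon-stimulated genes 10 fell (17.9%, near the 15.9% of all genes) and 2 rose (3.57%, against 15.2%). The list's median log2 fold change was -0.33. Its median log2 ratio was -0.505, -0.195, -0.352 and -0.327 in knockouts 1 to 4. In controls 1 to 4 it was 0.102, 0.115, -0.262 and 0.033. With the replicate number as a block 16 fell and 2 rose, and the count of falls was 5 without controls 1 and 2 and 3 with knockout 2 alone. The MHC class I gene H2-K1 had 1076, 987, 1386 and 1334 CPM in knockouts, against 1888, 1970, 1600 and 1776 CPM in controls, and Tap1, the peptide transporter, 203, 189, 236 and 216 CPM in knockouts, against 395, 402, 278 and 305 CPM in controls. Ifitm3, an antiviral membrane protein, went the other way, with 211, 158, 218 and 217 CPM in knockouts, against 101, 106, 114 and 119 CPM in controls. The list's summed level was 6555 to 8295 CPM in knockouts and 8242 to 9641 CPM in controls. The groups overlapped in the sum only through knockout 4 and control 3. Of 29 tested (34 listed) immediate early genes 8 fell (27.6%, against 15.9% over all genes) and 2 rose (6.90%, against 15.2%), with 5 lower without control 4 and 4 without controls 1 and 2. The list's median log2 fold change was -0.35, and -0.43 with knockout 2 alone.

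Of 20 tested (32 listed) imprinted genes 6 fell (30.0%, against 15.9% over all genes) and 4 rose (20.0%, against 15.2%), and the median log2 fold change was -0.07. Grb10, an adaptor that restrains growth signals, had 128, 108, 82 and 79.1 CPM in knockouts, against 43.5, 38, 25.4 and 24.9 CPM in controls. Igf2r, the clearance receptor of IGF2, had 1.47, 4.57, 1.69 and 1.84 CPM in knockouts, against 14.6, 16.7, 8.19 and 8.54 CPM in controls, and Peg12 1.28, 1.6, 0.968 and 1.75 CPM in knockouts, against 5.69, 4.64, 6.02 and 4.65 CPM in controls. Phlda2, a growth-restraining gene of the placenta, had 2.46, 8.42, 6.94 and 7.93 CPM in knockouts, against 1.75, 0.652, 1.00 and 1.44 CPM in controls. The groups did not overlap in these 4 genes. Of 18 tested (24 listed) Gprasp, Armcx, Bex and Tceal genes 11 fell (61.1%, against 15.9% over all genes) and 0 rose. These genes sit together on the X chromosome in large part. Gprasp2 had 0, 0.165, 0.403 and 0 CPM in knockouts, against 3.42, 3.1, 3.01 and 3.83 CPM in controls, Armcx2 13.4, 13.4, 11.2 and 10.6 CPM in knockouts, against 33.5, 38.3, 32.8 and 34.3 CPM in controls and Bex4 0.491, 0.11, 0.403 and 0.184 CPM in knockouts, against 4.33, 4.73, 0.585 and 1.64 CPM in controls. The median log2 ratio over the tested members was -0.87, -0.78, -0.52 and -0.61 in knockouts 1 to 4. Over whole chromosomes the share of genes called lower against a fold of 1.5 was highest on chromosome 6, at 9.10%, and the X chromosome, at 8.99%, and lowest on chromosome 8, at 3.08%, against 5.33% over all genes.

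Counts of several other lists moved with the libraries used. Over all genes tested 15.2% rose and 15.9% fell. The shares were 31.8% and 6.82% for lysosomal genes, 35.0% and 0% for ribosome biogenesis genes and 26.3% and 10.5% for chemokine receptors and retention genes. For dendritic cell genes they were 20.8% and 29.2%, and for cholesterol synthesis genes 8.0% and 20.0%. Of 44 tested (44 listed) lysosomal genes 14 rose and 3 fell, and over the alternatives the rises ranged from 0 to 16 and the falls from 0 to 5. The progranulin gene Grn, of lysosomes, rose by 0.61 ± 0.12. Of 40 ribosome biogenesis genes 14 rose (0 to 17 over the alternatives) and 0 fell. Of 19 tested (21 listed) chemokine receptors and retention genes 5 rose (1 to 7) and 2 fell (1 to 3), among them S1pr4, a sphingosine phosphate receptor, with 28.4, 27.9, 31.4 and 32.6 CPM in knockouts, against 49.3, 52.6, 44.2 and 52.1 CPM in controls. Of 24 tested (28 listed) dendritic cell genes 5 rose (2 to 6) and 7 fell (1 to 8), and Cd24a, a surface glycoprotein, had 699.9, 515, 617 and 683 CPM in knockouts, against 309, 299, 294 and 293 CPM in controls. Of 25 cholesterol synthesis genes 5 fell (2 to 5) and 2 rose (0 to 3). With knockout 2 alone no gene of the lysosomal and ribosome biogenesis lists was called. Without control 3, 6 lysosomal genes rose, and without control 2, 6 ribosome biogenesis genes did. Without control 1, 2 or 4 or knockout 1, 3 or 4, each left out alone, 0 cholesterol synthesis genes rose.

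Genes next to the deleted locus were looked at separately. Within 1000000 bases on either side of Kat7 the annotation has 65 other genes, of which 29 were tested, and 8 rose (27.6%, against 15.2% over all genes) and 3 fell (10.3%, against 15.9%). Samd14, a gene of hematopoietic progenitors that GATA2 is known to regulate, lies in this window (chromosome 11, 95009395 to 95026087 on mm10). It had 4.81, 3.91, 5.49 and 5.25 CPM in knockouts, against 65.6, 52.1, 27.8 and 36.6 CPM in controls. It fell by 3.24 ± 0.23 on the log2 scale (edgeR, Benjamini-Hochberg adjusted p = 4.12e-08). Controls 1 and 2 were above controls 3 and 4 in Samd14, and the knockouts lay below all of them. The other 2 genes of the window that fell were Acsf2 (-0.51 ± 0.14) and Ppp1r9b (-0.25 ± 0.08, not called without control 1 or 4 or knockout 1 or 4, each left out alone).

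The same deletion with the tamoxifen-activated CreER, in 4 knockout and 4 control LSK libraries of other mice (3 females and 1 male in each group, per the labels, given tamoxifen), gave a different effect in 616 of the 14102 genes (4.37%), tested as the interaction of genotype and Cre line. Of these 519 (3.68%) had a lower effect with Mx1Cre than with CreER and 97 (0.688%) a higher one. The treatment, the mice and the Cre differ together between the lines and cannot be told apart. Adcy6 had log2 fold changes of -3.74 ± 0.21 with Mx1Cre and -0.76 ± 0.17 with CreER. Marcks had -3.32 ± 0.21 with Mx1Cre and 0.01 ± 0.18 with CreER. Zfp970 had -5.40 ± 0.26 with Mx1Cre and -1.19 ± 0.18 with CreER, and Tek -3.70 ± 0.42 and -1.09 ± 0.32. The falls of these genes were larger with Mx1Cre. Among genes that rose, Etv5 had 1.65 ± 0.15 with Mx1Cre and 0.30 ± 0.15 with CreER, Ccnd1 1.44 ± 0.19 and -0.13 ± 0.18, and Slc6a9 2.69 ± 0.22 and 0.43 ± 0.21. Their interaction terms were 1.36 ± 0.21, 1.56 ± 0.26 and 2.26 ± 0.31 (edgeR, Benjamini-Hochberg adjusted p = 0.000986, 0.0016 and 0.000309). Gata2, with -1.58 ± 0.16 and -0.84 ± 0.15, and Nebl, with 2.91 ± 0.34 and 3.38 ± 0.38, had interaction terms of -0.75 ± 0.21 and -0.48 ± 0.51 that were not called (adjusted p = 0.0542 and 0.602, same test). Single Mx1Cre libraries moved the number of called differences. Omitting knockout 2 gave 2556, whereas omitting knockout 1, 3 or 4 gave 403, 319 and 392. Omitting control 1 gave 388 and omitting control 2 gave 334. The number was 61 with knockout 2 alone, and 224 when controls 1 and 2 were both omitted.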

How the data were processed

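RNA of LSK cells (50 ng per library, TruSeq, paired-end 80 base reads, per the labels' protocols) was counted per gene with featureCounts on mm10, per the submitters' processing notes. With the aligner, versions, annotation and strand setting not given in the sources used here, reads of overlapping, antisense and near-identical genes may be shared between them. The deposited values are the authors' raw counts, in a table of 27179 genes. Of these, 1904 without a symbol, with 3.92% of the counts, went through the same filter and tests under their Entrez numbers. They were left out only when genes were ranked for naming. Each replicate is a separate mouse.

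From the deposited counts, edgeR 4.0.16 in R 4.3.3 computed TMM scaling and a quasi-likelihood fit of all 16 LSK libraries, so that the Mx1Cre and CreER groups share 1 estimate of the spread. Genes passed edgeR's filter on low counts (a minimum of 10 counts, and 15 in total). A gene was called at a Benjamini-Hochberg adjusted p under 0.05 over 14102 genes, and a separate edgeR test asked for a fold above 1.5. CPM are counts per 1000000 library counts scaled by TMM, errors of log2 fold changes are standard errors, and ratios of single libraries used a prior count of 0.5. The length trend was a loess curve (span 0.5) of each library's ratios on exon length. In simulated counts of 13903 genes 100 were changed 1.5-fold and 97 were changed 2-fold. The Mx1Cre comparison recovered 41% and 84.5% of them, with 6 false calls (4.65%). Far more genes were called in the data, and the simulated libraries held no length trend, no differing knockout 2 and no split of the controls. The rates therefore hold for the simulated setting only. A library of 10701423 counts resolves low genes less well than one of 18409271. Floors of 3 counts cover counting error only, since the labels name no molecular identifiers.

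Knockouts and controls of the same number deviated together from their group means (r = 0.194, 0.258, 0.209 and 0.147 for numbers 1 to 4, across genes), so the numbers were treated as pairing the samples in an alternative fit. Same numbers also share the labelled sex: pairs of different number and the same labelled sex gave r = 0.071 to 0.193, and knockout 4 correlated as much with control 3 as with control 4 (r = 0.147 with each), so number and sex cannot be told apart in this check. Further alternatives were DESeq2 1.42.0, limma-voom 3.58.1, other size factors and filters, sex as a covariate, the 8 libraries alone, the length trend removed and libraries left out.

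The genes compared and all 45 lists were chosen with earlier results of these data known. Genes were named by rule: Kat7, HBO1 subunits and genes within 1000000 bases of Kat7; the 15 largest rises and falls among called genes of average log2 CPM of at least 1 whose groups do not overlap; up to 6 members of each list with the lowest adjusted p; the 5 highest genes at 0 in a whole group; and the 5 lowest p-values each way against a fold of 1.5, in the Cre line difference, and for least and most movement with the length trend. Outside this rule, and chosen after their values were seen, are 44 genes: Adgrg1, Alcam, Angpt1, Ank1, Cd27, Cdk1, Cdkn1c, Cma1, Cox6c, Epx, Erg, Ermap, F2r, Gp1bb, Gp5, H2-Q7, Hbb-bs, Hoxa6, Id2, Il18r1, Il4ra, Il6st, Klf1, Ldha, Ly6a, Ly6g, Lyl1, Mcpt8, Meis1, Pecam1, Pf4, Prg2, Procr, Rab27b, Rora, Runx1, Smad7, Spi1, Spry2, Tal1, Treml1, Trpc6, Vwf and Zfpm1; likewise Kel in a plot and the filtered-out markers Cdh5, Cxcl12, Lepr and Col1a1. Some genes are not reported here.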

Additional observations from a re-analysis of the deposited data

Results flagged for a closer look

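Among 431 groups of 4 libraries (genes named in the report, in CPM, and list medians), 18 had a library whose gap to its nearest neighbour was above Dixon's 95% critical value; chance gives about 1 in 20. Knockout 2 was the library apart in Cish (5.56 CPM), Erg (65.2 CPM), Igf2r (4.57 CPM), Itga1 (4.24 CPM) and Kit (360 CPM), highest of the knockouts in each, and in Ifitm3 (158 CPM), lowest of them. It was likewise apart in the median log2 ratio of angiopoietin receptor and endothelial-type genes (-0.086, highest) and of proteasome subunits (0.085, lowest), in each case nearest to the controls. Knockout 1 was highest in Chac1 (10 CPM) and Vwf (17.2 CPM) and lowest in Slc6a9 (8.45 CPM), and knockout 4 was highest in Fzd4 (0.0922 CPM) and lowest in Ica1 (3.78 CPM). Among controls, control 1 was highest in Kcnj5 (6.37 CPM) and Pf4 (35.7 CPM), control 2 highest in Bcl2l1 (20 CPM), and control 4 lowest in Kat7 (66.6 CPM) and highest in Zfp970 (17.8 CPM).

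In 82 of 193 named genes the knockout effect with Mx1Cre differed from that with CreER by the interaction term (edgeR, Benjamini-Hochberg adjusted p under 0.05), against 4.37% of all genes; since many were named for large changes, their share is not a result. The value is the log2 effect with Mx1Cre minus that with CreER. Among megakaryocyte and platelet genes it was -4.59 (Cavin2), -1.20 (F2r), -3.38 (Gng11), -1.86 (Gp1bb), -1.73 (Pf4), -2.67 (Rab27b), -2.20 (Treml1) and -2.74 (Trpc6). Among erythroid genes it was -3.29 (Car1), -1.77 (Epor), -2.80 (Ermap), -1.86 (Gata1), -2.02 (Klf1), -2.17 (Mfsd2b), -3.52 (Trib2) and 2.48 (Hbb-b1). Among mast cell and eosinophil genes it was -4.78 (Epx), -2.77 (Fcer1a), -1.94 (Ms4a2), -4.07 (Prg2) and -1.58 (Slc18a2). Among stem cell factors and surface genes it was -0.62 (Bcl11a), -0.93 (Cd93), -1.57 (Gfi1b), -0.74 (Hoxa9), -1.44 (Mecom), -1.88 (Mycn), -0.59 (Runx1) and -2.58 (Slamf1). Among endothelial-type genes it was -0.80 (Eng), -2.56 (Mmrn1), -2.03 (Robo4), -2.61 (Tek), 1.85 (Col4a1) and -1.07 (Pdgfrb). Among cytokine receptors and lymphoid genes it was -1.13 (Dntt), -1.56 (Ets1), -1.63 (Il18r1), -1.57 (Il1rl1), -1.10 (Il6st), -2.84 (Il7r), -1.05 (Irf8) and -1.88 (Tcf7). Among cyclic nucleotide and TGF-beta genes it was -2.99 (Adcy6), -3.09 (Pde10a), -2.15 (Pde2a), -2.55 (Pde5a), -3.66 (Ltbp1), -0.76 (Ltbp3), -0.81 (Ski) and -1.85 (Tgfbr3). Among integrins and Wnt receptors it was -3.03 (Itga1), -2.90 (Itga2), -0.88 (Itgav), -3.32 (Fzd1) and -4.24 (Fzd4). Among growth signalling genes it was 1.56 (Ccnd1), 1.72 (Dusp4), 0.89 (Dusp6), 5.12 (Etv4) and 1.36 (Etv5). Among the other genes of the text it was -0.79 (Armcx2), -3.31 (Bex4), -1.24 (H2-Q7), -1.49 (Hdac11), -2.33 (Ica1), -2.21 (Igf2r), -1.30 (Ldhb), -3.33 (Marcks), -3.54 (Plk2), -2.56 (Ppic), 0.91 (Ptgs1), -0.66 (S1pr4), -2.40 (Samd14), 2.26 (Slc6a9), 1.81 (Spp1), -4.21 (Zfp970) and -0.93 (Zmat3). In 4 genes a whole Mx1Cre group held 0 counts, and the fitted value depends on the prior count: 5.70 (Cacng8), -6.48 (Dmd), -7.77 (Kcnj5) and -6.61 (Slc6a15). Treatment, mice and Cre differ together between the lines, and their parts were not tested.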

How the results depend on the processing

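Of 3636 values of 192 named genes under the alternatives, 3452 kept direction and call, 176 lost the call, 7 gained it and 1 reversed: Ank1, at 0.10 without controls 1 and 2. Of the lost calls 107 were with knockout 2 alone and 31 with 1 library left out. Of 855 list medians 60 moved by more than the spread between replicates. The 4378 called genes became 549 with knockout 2 alone (113 higher, 436 lower) and 1946 without controls 1 and 2 (669 higher, 1277 lower), both with fewer samples and the second chosen after the data were seen. Leaving out 1 library gave 3157 (control 2) to 5674 (knockout 2) called genes, 1361 to 2763 higher, with the lowest without control 2, and 1728 to 2911 lower. Against a fold of 1.5 the 853 genes became 540 with limma-voom, 237 with knockout 2 alone, and 649 to 1007 without 1 library. The 616 genes that differed between Cre lines became 61 with knockout 2 alone, 224 without controls 1 and 2, and 319 to 2556 without 1 library. The other alternatives gave 4226 to 4826 called genes. With the replicate block 4240 genes were called and 554 differed between Cre lines; it moved G2 and M phase rises to 27 and interferon-stimulated falls to 16, ended the calls of Cma1 and Hoxa2, and changed no other named gene's call. Kat7 stayed between -5.81 and -5.53. Genes under about 1 CPM rest on few reads in each library, and small changes there were not detectable at this depth.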
